A study of Mus musculus with 24 samples.

Results

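The tRNA repeat elements are the entries of the mouse RepeatMasker annotation whose class is tRNA, such as tRNA-Ser-TCY. They were selected by that class label alone, which gave 60 of the 1445 repeat elements that were counted beside 47937 genes. Each name holds an amino acid and, in 57 of the 60, a triplet. The triplet was a codon of the named amino acid in 56 elements and an anticodon of it in 0, and the remaining element with a triplet was the selenocysteine entry tRNA-SeC(e)-TGA. In these names Y stands for C or T, so that Ser-TCY is the element whose tRNAs read the serine codons TCC and TCT. An element pools all annotated copies of its sequence across the genome, whether or not a copy is a working tRNA gene.

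Transfer RNAs carry amino acids to the ribosome and pair with codons of the mRNA through their anticodon. RNA polymerase III transcribes their genes from a promoter that lies inside the transcribed sequence, the A box and the B box, which transcription factor TFIIIC binds. The precursors are then trimmed by RNase P and by the 3′ processing enzyme Elac2, spliced where they hold an intron, given a CCA end and modified. Mammalian genomes also hold many tRNA-derived copies, including whole families of short interspersed elements, and retroviruses use particular tRNAs as primers of reverse transcription.

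Total RNA was measured by stranded paired-end RNA sequencing in mouse embryonic fibroblasts (MEFs) that carry Eset1-conditional alleles and tamoxifen-inducible Cre, in 24 libraries of 8 conditions with 3 biological replicates each. The study asked what happens to chromatin and transcription when the histone H3 lysine 9 methyltransferases are removed step by step. In all conditions with Eset1 deleted, the cells had grown for 2 days with 4-hydroxytamoxifen (4-OHT, 1 µM) and then for 2 days without it. WT is the Eset1-conditional line E25 without 4-OHT, and E1 is the same line after 4-OHT.

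E1 S1S2 is clone B1, in which Suv39h1 and Suv39h2 carry CRISPR/Cas9 mutations, after 4-OHT. 6KO1 is its descendant B1A6, in which Eset2, G9a and Glp were mutated in addition, after 4-OHT. In the other series, E2 is clone A4, mutated in Eset2 and not given 4-OHT, and E1E2 is A4 after 4-OHT. E1E2 G9Gl is a G9a and Glp mutant descendant of A4, and 6KO2 is the descendant of that clone with Suv39h1 and Suv39h2 also mutated, both after 4-OHT. Every condition thus rests on 1 clone, so a p-value measures the spread between cultures of that clone and not between independent mutants. Wherever Eset1 was deleted, the loss of Eset1 and the exposure to 4-OHT cannot be told apart, and WT and E2 are the only conditions without 4-OHT. After the CRISPR/Cas9 mutations, inducible Cre was introduced again with a puromycin resistance gene, and the lines were kept in puromycin. The paper does not say whether this held for E25, and its part in the differences from WT was not tested.

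As examples of nuclear tRNA genes, 4 of the 403 in RefSeq on GRCm38.p6 are printed. Which genes an element counts is not given in the sources used here, so they are not shown to be the source of its counts. They were chosen to show the isotypes whose elements are described below. The choice was limited to genes whose sequence is held in the sources used here and holds the B box motif. In each line, the capitals mark first the anticodon and then the B box motif GTTCNANNC.

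n-TAagc16 (Ala, reads GCT): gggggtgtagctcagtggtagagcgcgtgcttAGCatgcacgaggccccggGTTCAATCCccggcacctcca
n-TTagt9 (Thr, reads ACT): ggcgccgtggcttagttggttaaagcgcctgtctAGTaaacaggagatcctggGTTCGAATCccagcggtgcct
n-TRtcg5 (Arg, reads CGA): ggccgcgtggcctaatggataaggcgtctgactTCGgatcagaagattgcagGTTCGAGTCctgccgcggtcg
n-TVcac9 (Val, reads GTG): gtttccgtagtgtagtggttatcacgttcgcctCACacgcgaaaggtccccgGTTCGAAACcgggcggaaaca

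These genes lie at chr13:21222586-21222657 on the plus strand (n-TAagc16), chr7:35234770-35234843 on the minus strand (n-TTagt9), chr7:79466419-79466491 on the plus strand (n-TRtcg5) and chr13:23446142-23446214 on the minus strand (n-TVcac9). n-TRtcg5 lies in an exon of the gene model Gm10616, and n-TAagc16, n-TTagt9 and n-TVcac9 lie outside GENCODE genes. Over all 403 nuclear tRNA genes, 326 lay outside GENCODE genes, 67 in introns and 10 in exons, with 105 of them on chromosome 13. Searched on both strands, the 9-base motif was present in 2.44% of 32851 promoter windows (the first 73 bases of each). The printed genes were picked for holding it, so this share shows no enrichment in tRNA genes. Mature tRNAs, precursors and transcripts that run through a copy were not separated in these counts. The RNA had passed an RNeasy MinElute cleanup before library preparation. How much RNA of tRNA length (genes of 70 to 107 bases) each preparation kept is not given, and its part in the results was not tested.

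The libraries held 24736829 to 37419071 counts, of which 12.5% to 21.9% fell on repeat elements and 2717 to 5869 on the tRNA elements. These were 0.0516% to 0.135% of the repeat counts. Of the fibroblast genes, Col1a1 and Vim reached at least 10741 and 34165 normalized counts in every library, whereas Thy1 ranged from 0 to 426. Among the marker genes read for epithelial, blood, endothelial and pluripotent cells, Cd68 reached 527 and Krt8 436, and the others, including Epcam, Cdh1, Ptprc, Pecam1 and Nanog, were listed with at most 72.9. Of the targeted genes, Setdb2 (Eset2) was at 755 ± 58.2 (SD, n = 3) in WT and 294 ± 25.8 in E2, and Ehmt2 (G9a) at 3228 ± 494 in WT, 2183 ± 102 in 6KO2, 1287 ± 86.8 in 6KO1 and 1003 ± 57.8 in E1E2 G9Gl. Suv39h1 was at 2786 in WT and 1265 in E1 S1S2, but Suv39h2 was at 1000 in WT and 1700 in E1 S1S2, the library group labelled as its mutant. Setdb1 (Eset1) was still at 1031 ± 53.0 in E1, against 1529 ± 72.8 in WT, and its count also covers the part of the gene that is not deleted, so neither count checks the deletion.

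WT replicate 2 stood apart from the other WT libraries, over all genes and in small RNAs. As a chi-square per gene, it differed by 68.3 from replicate 1 and by 57.0 from replicate 3. Those 2 differed by 5.04, and the largest value within a mutant group was 25.2. Its library factor from the gene rows, 0.906, was the lowest of all libraries. WT replicate 2 was the highest of the WT libraries for the tRNA elements other than alanine, 7SK, small nucleolar RNA genes and mitochondrial tRNA genes. It was the lowest for the SINE families B2, ID and MIR. Counts are therefore given with and without it. E1 replicate 3 and 6KO2 replicate 3 were likewise the highest of their groups for the non-alanine tRNA elements (2360 against 1847 and 1446, and 1966 against 1233 and 1457 normalized counts) and for small nucleolar RNA genes (70272 against 59560 and 47282, and 74223 against 56250 and 53384). 7SK was highest in E1 replicate 3 as well, but not in 6KO2 replicate 3. Without these libraries, 7 tRNA elements were called lower in E1 and 25 in 6KO2, against 2 and 18 with them. The part of these shifts in the results was not tested. In 5 libraries (E2 replicate 2, E1E2 replicate 2 and all 3 of 6KO2) the small nuclear RNA U2 reached 35188 to 53252 raw counts, against 153 to 267 in the other 19. Its part in the results was not tested. Without E2 replicate 2, 29 tRNA elements were called lower in E2, and without E1E2 replicate 2, 14 in E1E2, against 27 and 16 with all libraries; in 6KO2 no library without this signal was left to compare.

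Of the 60 elements, 3 had no count in any library (Arg-CGA_, Leu-TTA(m) and Tyr-TAT), and 47 passed the filter on low counts and were tested. One of the 47, Thr-ACG, passed only through the WT libraries and was called in none of the 7 comparisons with WT, so that without it each number of calls stayed the same. Levels are given as counts normalized to the gene counts of each library. They are not divided by copy number or length and do not rank the elements against each other as RNA levels.

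Summed over all 60 elements, tRNA counts were lower in every mutant library than in every WT library. The WT libraries held 5102, 5360 and 4613 normalized counts. The E2 libraries held 3233, 3570 and 3765, and the E1E2 G9Gl libraries 3511, 3435 and 3581. As ratios of means to WT, E1E2 G9Gl stood at 0.698, E2 at 0.701, 6KO2 at 0.711, 6KO1 at 0.740, E1E2 at 0.775, E1 S1S2 at 0.816 and E1 at 0.833. With the library factors taken from the repeat counts alone, the ratios and their order changed, to 0.379 in E1E2 G9Gl, 0.469 in 6KO1, 0.548 in 6KO2, 0.624 in E2, 0.681 in E1E2, 0.684 in E1 S1S2 and 0.760 in E1. In such bulk samples, fewer cells that make an RNA and less of it per cell cannot be told apart. The 7 comparisons with WT share the same 3 WT libraries and are not independent of each other. Without WT replicate 2, the ratios ran from 0.722 to 0.862, and each mutant library was still below both WT libraries.

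The alanine elements and the rest differed in this. Alanine made up the largest share of tRNA counts, with 25.4% to 52.7% of them on the single element Ala-GCY_. The 4 alanine elements summed to 2491, 1862 and 2315 in WT, and their ratios to WT lay between 0.910 (6KO2) and 1.10 (E1 S1S2), with overlap in every condition. The other 56 elements summed to 2611, 3498 and 2299 in WT, against 969, 1400 and 1270 in E2 and 1385, 1454 and 1739 in 6KO1. Their ratios were 0.433 in E2, 0.493 in E1E2 G9Gl, 0.545 in 6KO1 and E1E2, 0.554 in 6KO2, 0.590 in E1 S1S2 and 0.672 in E1. Only E1 overlapped with WT, through its replicate 3 at 2360. They ran from 0.494 in E2 to 0.768 in E1 when WT replicate 2 was left out.

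**Figure D1:**
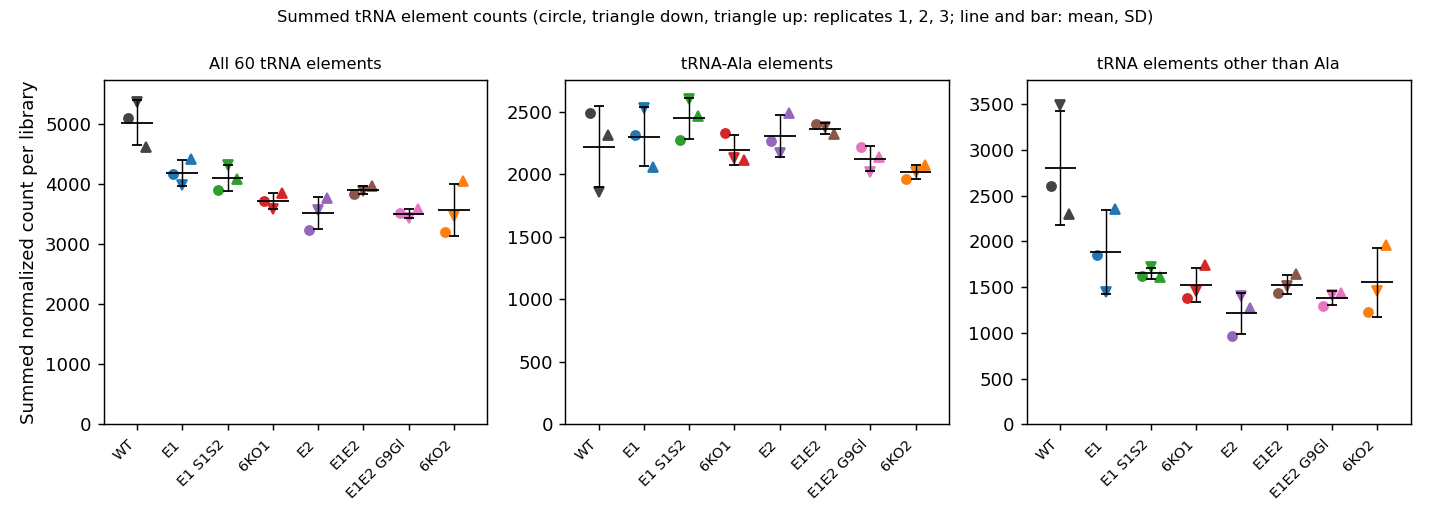
Summed normalized counts per library of all tRNA elements, of the alanine elements and of the other elements, in the 8 conditions, with a symbol for each replicate, a line for the mean of 3 and a bar for the SD. The sums over all elements and over the non-alanine elements lie below WT, except that E1 replicate 3 overlaps in the latter, whereas the alanine sums overlap with WT in all conditions.

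A tRNA element was called when it changed at least 2-fold at an adjusted p of at most 0.01 (edgeR quasi-likelihood test, two-sided, Benjamini-Hochberg over 1207 repeat elements). No tRNA element was called higher than WT in any mutant. DESeq2 called none higher either. At an unadjusted p of at most 0.05 in edgeR, elements above WT numbered 1 in E1 S1S2, 2 in 6KO2 and 0 in the other 5. The share of all repeat elements above WT at that p was not counted. Among all repeat elements, those called higher at the adjusted p and 2-fold minimum were 4.97% in E2, 32.6% in 6KO1, 41.3% in E1E2 G9Gl, 22.5% in 6KO2, 5.55% in E1E2, 6.46% in E1 S1S2 and 4.64% in E1.

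Called lower than WT were 27 of the 47 tRNA elements in E2, where 2.32% of all repeat elements were called lower. The numbers were 21 in 6KO1 (2.65% of all repeat elements), 20 in E1E2 G9Gl (2.07%) and 18 in 6KO2 (2.15%). They were 16 in E1E2 (1.57%), 7 in E1 S1S2 (0.746%) and 2 in E1 (0.249%). Of all repeat elements called lower in E2, 27 of 28 were tRNA elements, and in 6KO1 21 of 32. When WT replicate 2 was left out, the numbers were 19 in E2, 13 in 6KO1, 15 in E1E2 G9Gl, 13 in 6KO2, 10 in E1E2, 2 in E1 S1S2 and 1 in E1. Other libraries moved the small numbers as well, as E1 S1S2 had 12 and 15 without WT replicate 1 and 3, and E1 had 4 without either of these, 0 without its replicate 2 and 7 without its replicate 3.

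The median log2 fold change of the 47 elements against WT was -1.17 in E2, -0.90 in each of 6KO1, E1E2 G9Gl and 6KO2, -0.85 in E1E2, -0.76 in E1 S1S2 and -0.57 in E1. Without WT replicate 2 it was -1.05 in E2, -0.73 in 6KO1, -0.66 in E1E2 G9Gl, -0.65 in 6KO2, -0.62 in E1E2, -0.52 in E1 S1S2 and -0.34 in E1. Over all repeat elements tested the medians were above 0, from 0.10 in E1 to 0.77 in E1E2 G9Gl. Between 41 and 44 of the 47 tRNA elements lay below 0 in each comparison. Elements with all 3 mutant libraries below all 3 WT libraries numbered 35 in E2 (6.05% of all repeat elements), 28 in 6KO2 (6.55%), 26 in 6KO1 (5.63%), 26 in E1E2 G9Gl (4.81%), 26 in E1E2 (5.05%), 26 in E1 S1S2 (5.55%) and 12 in E1 (2.49%). With the library factors taken from the repeat counts alone, the tRNA medians were -1.54 in 6KO1 and -1.79 in E1E2 G9Gl. Those over all repeat elements were then -0.06 and -0.07.

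**Figure D2:**
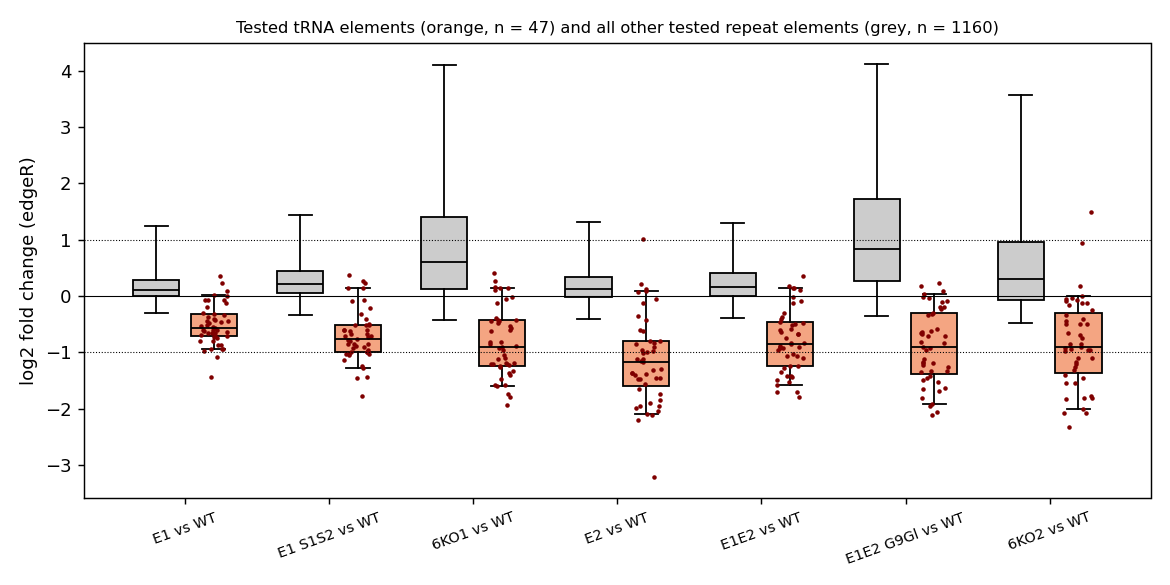
Log2 fold change against WT of the 47 tested tRNA elements (orange, with a dot for each) and of the other tested repeat elements (grey) in each mutant, with boxes from the lower to the upper quartile, a line at the median, whiskers to the outer percentiles (5 and 95) and dotted lines at a 2-fold change. The tRNA medians lie below 0 in all 7 mutants, from -0.57 in E1 to -1.17 in E2, and the medians of the other repeat elements lie above 0.

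Over the 7 comparisons with WT, 33 elements were called lower at least once (4.39% of all repeat elements tested), 14 never and 0 in all 7. In 37 elements the log2 fold change was below 0 in all 7 (5.55% of all repeat elements). In 6 elements each of the 21 mutant libraries lay below each WT library (0.663% of all repeat elements), namely Trp-TGG, Lys-AAA, Asn-AAC, Thr-ACY, Pro-CCY and Met-i, which were singled out after their values were seen. These carry tryptophan, lysine, asparagine, threonine, proline and the methionine of initiation.

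Serine had the element with the smallest adjusted p. Ser-TCY stood at 199, 256 and 151 normalized counts in WT, at 47.6, 63.7 and 57.0 in E2 and at 77.9, 56.5 and 51.7 in E1E2. It stood at 86.1, 98.3 and 109 in 6KO1, at 57.9, 75.4 and 75.1 in 6KO2 and at 57.2, 75.2 and 95.8 in E1E2 G9Gl. None of these libraries reached the lowest WT library. The fitted log2 fold change was -1.84 ± 0.20 (SE, n = 3 against 3) in E2 at an adjusted p of 3.1e-10 by edgeR, -1.70 ± 0.20 in E1E2, -1.54 ± 0.20 in 6KO2, -1.42 ± 0.20 in E1E2 G9Gl and -1.05 ± 0.18 in 6KO1. The 6KO1 value was no longer called without WT replicate 2 (-0.84) or 6KO1 replicate 1 (-0.97). In E1, with 128, 90.8 and 165, the libraries overlapped with WT and the change of -0.65 was under the 2-fold minimum.

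Ser-TCG did not follow Ser-TCY. It was at 111, 240 and 112 in WT, at 49.2, 39.2 and 67.5 in 6KO1 and at 59.3, 71.7 and 53.1 in E1E2 G9Gl, but at 120, 137 and 192 in 6KO2. The groups did not overlap in 6KO1 (-1.59 ± 0.24) and E1E2 G9Gl (-1.34 ± 0.24), where the element was called lower, and they overlapped in 6KO2 (-0.06 ± 0.22). The call in E1E2 G9Gl was lost without WT replicate 2, at -0.86.

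Arg-CGA in E2 had the lowest log2 fold change of any tRNA element in the 7 comparisons with WT. The element, the isotype of the gene n-TRtcg5 above, was at 49.0, 49.3 and 34.1 in WT and at 2.38, 4.48 and 7.13 in E2, a log2 fold change of -3.21 ± 0.40 at an adjusted p of 7.5e-09 by edgeR. It was also lower in E1 S1S2 (21.1, 12.7 and 14.4), E1E2 (9.86, 17.7 and 13.4), E1E2 G9Gl (10.8, 9.25 and 14.2) and 6KO2 (12.4, 13.7 and 6.63), with log2 fold changes of -1.44, -1.70, -1.95 and -2.005. In 6KO1 it was at 23.7, 12.2 and 21.5 and called at -1.21, but not without 6KO1 replicate 2, at -0.97. The E1 libraries (17.6, 12.8 and 36.9) spread over more than 2-fold and overlapped with WT.

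Arg-AGG was at 50.1, 75.8 and 40.1 in WT and at 9.52, 12.6 and 21.4 in E2 (-1.95 ± 0.30). It was called in E1 S1S2 at -1.03, 6KO1 at -1.23, E1E2 at -1.24 and E1E2 G9Gl at -1.18, and all of these 4 calls were lost without WT replicate 2, at -0.72, -0.93, -0.93 and -0.87, and the one in E1 S1S2 also without its replicate 2, at -0.94. Arg-CGG had the lowest log2 fold change in E1 of all tRNA elements, -1.44 ± 0.40, although its E1 libraries (6.84, 4.94 and 13.2) overlapped with WT (20.2, 36.5 and 12.04). Without WT replicate 1 that call was lost on its adjusted p, at -1.53, and without WT replicate 2 the value was -0.91. It was lost without E1 replicate 1 or 2 as well, at -1.32 and -1.19.

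Trp-TGG, the single tryptophan element, was at 117, 138 and 94.4 in WT, and the highest mutant library, in E1, was at 90.6. It was at 14.3, 35.9 and 33.3 in E2, the lowest of the conditions, and at 30.8, 39.2 and 46.9 in 6KO1. The log2 fold changes were -2.04 ± 0.26 in E2, at an adjusted p of 8.9e-09 by edgeR, -1.59 ± 0.24 in 6KO1, -1.55 ± 0.24 in 6KO2, -1.53 ± 0.25 in E1E2 G9Gl and -1.35 ± 0.24 in E1E2. In E1 (-0.75) and E1 S1S2 (-0.92) it was under the 2-fold minimum.

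The lysine elements differed from each other. Lys-AAA was at 99.1, 132 and 92.3 in WT and at 11.9, 42.2 and 26.1 in E2 (-1.96 ± 0.25), and it was called lower in E1E2 (-1.41), E1E2 G9Gl (-1.63) and 6KO1 (-1.11). The 6KO1 call was lost without WT replicate 2, at -0.93. Lys-AAG was at 50.1, 45.7 and 61.2 in WT, at 44.0, 37.7 and 41.6 in E2 and at 56.1, 48.6 and 47.9 in E1E2 G9Gl, and it was called in no comparison. RefSeq holds 2 nuclear tRNA genes that read AAA and 24 that read AAG.

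Asn-AAC was at 84.2, 111 and 77.3 in WT and between 19.0 and 62.4 in the 21 mutant libraries. It was lower in E2 (19.0, 33.2 and 28.5; -1.73 ± 0.22 at an adjusted p of 1.5e-08 by edgeR), and also called in E1E2 G9Gl (-1.46), 6KO2 (-1.41), E1E2 (-1.25) and 6KO1 (-1.19). Thr-ACY, like Thr-ACY_, is named for a triplet that covers the codon of n-TTagt9. Thr-ACY was at 60.7, 71.2 and 45.2 in WT and at 14.9, 16.5 and 19.6 in 6KO1. Its called log2 fold changes of -1.81 in both 6KO2 and E1E2 G9Gl, -1.80 in 6KO1, -1.58 in E1E2 and -1.57 in E2 lay close together, with SEs of 0.27 to 0.29.

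Gln-CAG, a glutamine element, was lowest in mean in E1E2 G9Gl, and Glu-GAG_, the tested glutamate element, in E1E2 G9Gl and 6KO2. Gln-CAG was at 193, 251 and 144 in WT, at 45.3, 72.8 and 64.8 in E1E2 G9Gl (-1.69 ± 0.23, adjusted p of 9.6e-09 by edgeR), at 53.5, 94.2 and 86.7 in E2 (-1.31) and at 61.0, 83.4 and 92.8 in 6KO2 (-1.32). It was called lower in these 3, without overlap with WT. In 6KO1, with 105, 149 and 186, it overlapped with WT. Glu-GAG_ was at 90.6, 86.8 and 53.2 in WT, at 18.3, 22.0 and 14.2 in E1E2 G9Gl (-2.06 ± 0.29) and at 9.31, 17.1 and 28.7 in 6KO2 (-2.07 ± 0.28). It was also lower in E1 S1S2 (22.7, 24.5 and 19.8; -1.78 ± 0.26) and 6KO1 (-1.58). Its calls in E2 (-1.11) and E1E2 (-1.04) were lost without WT replicate 2, at -1.01 and -0.93, and without WT replicate 1, at -0.99 and -0.91, and also without E2 replicate 1 (-0.95) and E1E2 replicate 3 (-0.99).

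Leu-TTA was at 74.6, 162 and 68.3 in WT, with replicate 2 more than 2-fold above the others. It was at 20.2, 19.1 and 42.0 in 6KO1 (-1.93 ± 0.29) and at 22.7, 28.9 and 29.8 in E1E2 G9Gl (-1.92 ± 0.30), below the lowest WT library in each case. Its calls in E1 S1S2 (-1.45), E2 (-1.15) and 6KO2 (-1.11) were lost without WT replicate 2, at -0.93, -0.62 and -0.59, and those in E2 and 6KO2 also without E2 replicate 1 (-0.89) and 6KO2 replicate 1 (-0.82). Leu-TTG had the highest log2 fold change of all tRNA elements in E1, 0.36 ± 0.29, and was not called there. It was at 25.6, 32.9 and 37.1 in WT and at 7.91, 12.2 and 14.7 in 6KO1 (-1.47 ± 0.35).

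Gly-GGG had the lowest log2 fold change of all tRNA elements in both E1E2 G9Gl (-2.11 ± 0.35) and 6KO2 (-2.33 ± 0.35). It was at 26.6, 59.4 and 35.1 in WT, at 6.47, 9.25 and 13.0 in E1E2 G9Gl and at 5.17, 6.86 and 12.1 in 6KO2, so the groups did not overlap. The calls in E2 (-1.48) and E1E2 (-1.07) were lost without WT replicate 2, at -1.08 and -0.67, and the one in E1E2 also without E1E2 replicate 1 (-0.86) or replicate 3 (-1.15). The other glycine elements, Gly-GGA and Gly-GGY, were called in no comparison.

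Val-GTY was at 89.5, 120 and 74.3 in WT and at 16.5, 28.6 and 35.3 in 6KO2 (-1.83 ± 0.25, adjusted p of 1.2e-08 by edgeR). It was also called in E2 (-1.64), E1E2 G9Gl (-1.22) and E1E2 (-1.10), the last not without WT replicate 2 (-0.89) or E1E2 replicate 1 (-0.99). Tyr-TAC was at 165, 218 and 114 in WT, at 49.97, 78.9 and 61.8 in E2 (-1.37 ± 0.21) and at 57.1, 72.2 and 89.9 in 6KO1 (-1.19 ± 0.21). The 6KO1 call was lost without WT replicate 2, at -0.94. In 6KO2, with 110, 130 and 156, Tyr-TAC overlapped with WT.

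**Figure D3:**
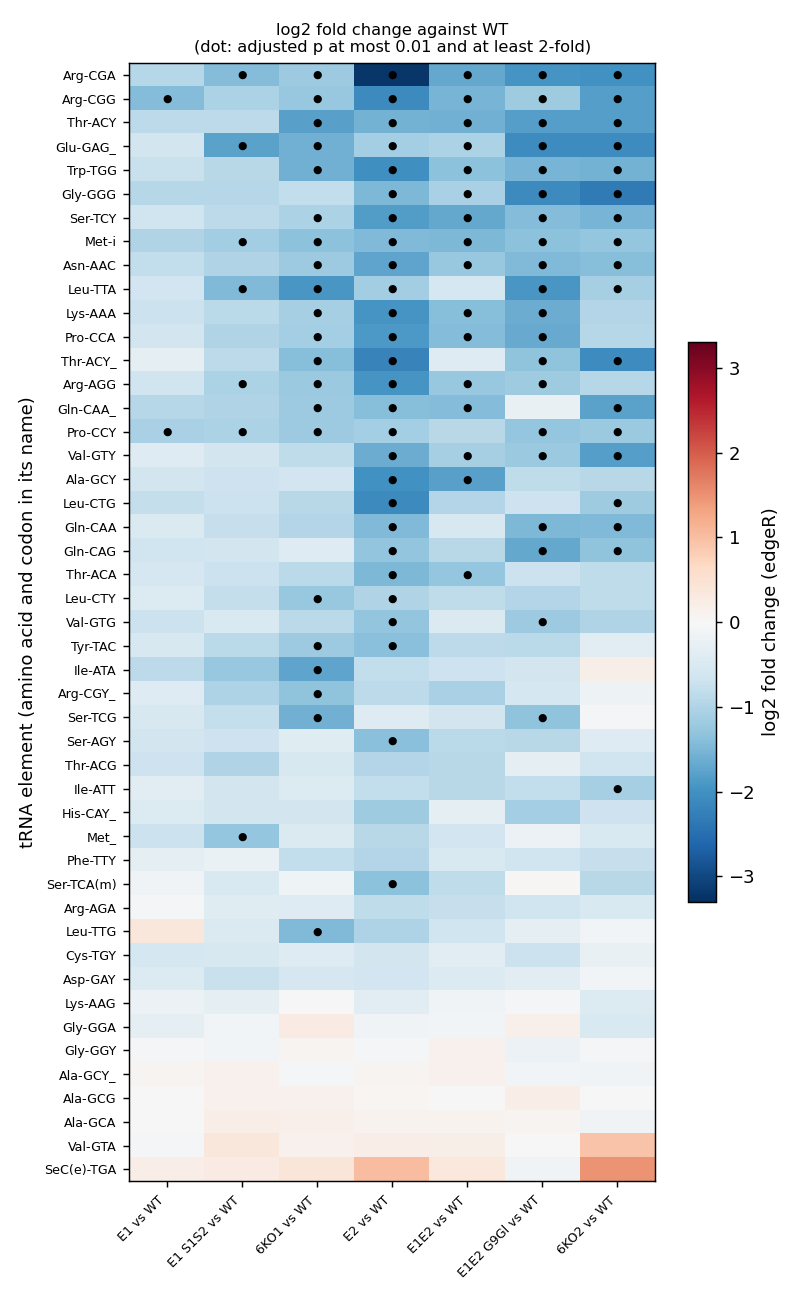
Log2 fold change against WT of each of the 47 tested tRNA elements (rows) in the 7 mutants (columns), on a colour scale centred at 0, with a dot where the element was called. No dot stands on a positive value, and the number of dots per column runs from 2 in E1 to 27 in E2.

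Pro-CCY and Met-i were called in 6 of the 7 comparisons. Pro-CCY was at 59.7, 64.8 and 53.2 in WT and between 17.1 and 37.6 in the mutant libraries. Its log2 fold changes lay between -0.91 (E1E2, not called) and -1.26 (E1E2 G9Gl), with -1.08 ± 0.23 in E1, where it was the called element besides Arg-CGG. The call in E1 was lost without E1 replicate 2 (-0.89), and that in E1 S1S2 (-1.04) without WT replicate 2 (-0.96) or E1 S1S2 replicate 2 (-0.92). Met-i, the initiator methionine element, was at 28.8, 45.7 and 33.1 in WT and between 8.70 and 24.4 in the mutant libraries. Its log2 fold changes ran from -0.98 in E1 (not called) to -1.49 ± 0.31 in E1E2. In E1 S1S2 (-1.14) and E2 (-1.45) its calls were lost without WT replicate 2 (-0.92 and -1.23), and in E1 S1S2 also without its replicate 1 (-0.99) or 3 (-1.05).

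The alanine elements were mostly close to WT. Ala-GCY_, like Ala-GCY, is named for a triplet that covers the codon of n-TAagc16. Ala-GCY_ was at 1883, 1363 and 1739 in WT, and its log2 fold changes lay between -0.12 and 0.14 with SEs of 0.10. With the factors taken from the repeat counts alone, the value in E1 S1S2 changed from 0.14 to -0.07. Ala-GCA was at 448, 347 and 449 in WT, and its log2 fold changes lay between -0.12 and 0.23 with SEs of 0.11. An interval of 2 SEs around these values covers less than a 2-fold change in either direction. Ala-GCG had the highest log2 fold change of all tRNA elements in E1E2 G9Gl, 0.22 ± 0.18, with 101, 62.1 and 77.3 in WT against 104, 87.9 and 86.8, and was at -0.61 with the library factors taken from the repeat counts alone. The element Ala-GCY, which has no _ in its name, was the exception. It was at 58.6, 89.5 and 49.2 in WT, at 14.3, 12.6 and 23.8 in E2 (-1.99 ± 0.32) and at 14.8, 23.3 and 19.6 in E1E2 (-1.79 ± 0.31), which did not overlap with WT. What the sign _ marks is not given in the sources used here.

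The selenocysteine element tRNA-SeC(e)-TGA had the highest log2 fold change of all tRNA elements in 6KO1 (0.40 ± 0.56, but -0.23 with the repeat factors), E1E2 (0.36 ± 0.58), E2 (1.02 ± 0.53) and 6KO2 (1.48 ± 0.50), and was called in none of them. Selenocysteine tRNA reads UGA, otherwise a stop codon, in mRNAs of selenoproteins. The element was at 2.13, 10.96 and 4.01 in WT at 11.9, 15.2 and 8.32 in E2, which overlapped with WT, and at 10.3, 6.86 and 33.1 in 6KO2, where 1 library carried most of the difference and the groups overlapped. The 6KO2 value missed the call with all libraries and was called without WT replicate 2 (2.39), without 6KO2 replicate 1 (1.75) and without 6KO2 replicate 2 (1.84).

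By amino acid, sums over elements were below WT in ratio for 19 to 21 of the 21 groups in each mutant. All 3 mutant libraries lay below all WT libraries in 17 groups in E2 and E1E2 G9Gl, 15 in E1 S1S2, 14 in 6KO1 and E1E2, 12 in 6KO2 and 8 in E1, and above in 0. The same was not counted for sums of other repeat elements, so these numbers of groups have no background. The lowest ratio was 0.239 in E2 (tryptophan), 0.253 in E1E2 G9Gl and 0.254 in 6KO2 (glutamate in both). Counted over the 7 comparisons, lower calls per tested element were 6 for glutamate (1 element tested), 5 for proline (2), asparagine (1) and tryptophan (1), 3.6 for arginine (5), 3.5 for methionine (2) and 3.33 for glutamine (3), and at most 2.75, in threonine (4), for the rest. Aspartate, cysteine, histidine, phenylalanine and selenocysteine had 0, each with 1 element tested. Groups with 1 element tested rest on that element alone, and the 7 comparisons share the same WT libraries. Lower calls per element were not counted over all repeat elements.

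The tRNAs that prime reverse transcription of mouse retroviral elements were read side by side. Proline tRNA primes murine leukemia virus, lysine tRNA primes mouse mammary tumour virus and the MusD and ETn elements, phenylalanine tRNA primes intracisternal A particles and leucine tRNA primes MERVL. The proline elements summed to 110, 140 and 97.4 in WT, and their ratio to WT ran from 0.357 in E2 to 0.565 in E1, with every mutant library below WT. The lysine elements summed to 149, 178 and 154 in WT, with ratios of 0.423 in E2 to 0.696 in E1 and no overlap. This sum covers Lys-AAA and Lys-AAG. Lys-AAG was called in no comparison, with log2 fold changes against WT of -0.45 to -0.03. The leucine elements summed to 238, 387 and 216 in WT, with ratios from 0.400 in 6KO1 to 0.742 in E1. For leucine, libraries of E1 and of 6KO2 overlapped with WT. The phenylalanine element stood at 73.5, 70.3 and 72.3 in WT, with ratios from 0.510 in E2 to 0.865 in E1 S1S2, and E1 overlapped with WT.

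**Figure D4:**
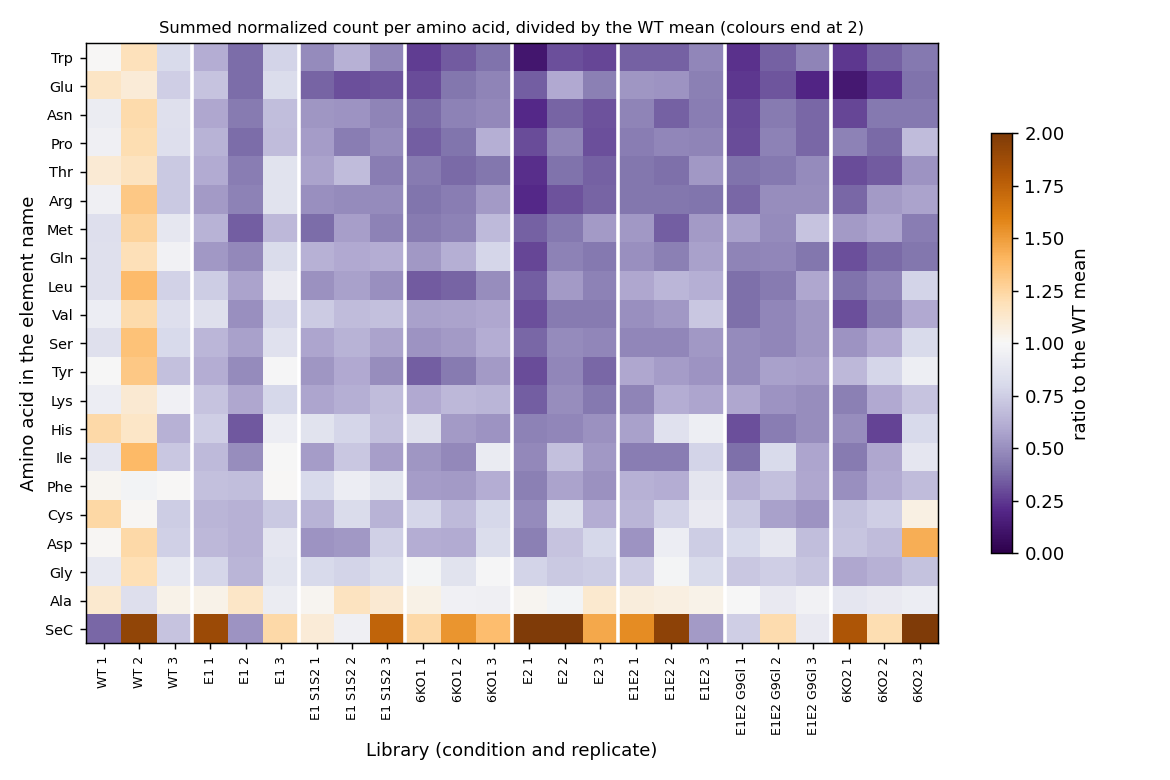
Summed normalized counts of each amino acid group (vertical axis) in each of the 24 libraries (horizontal axis), divided by the WT mean of that group, on a colour scale from 0 to 2 that is white at 1. Most groups are below 1 in the mutant libraries, alanine is near 1 throughout, and selenocysteine, with at most 33.1 normalized counts in a library, is uneven also among the WT libraries.

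Differences between mutants were few. E1E2 against E2, which asks for the effect of Eset1 deletion and 4-OHT in the Eset2 mutant clone, gave 0 calls in either direction by edgeR, with 12 elements higher (8.12% of all repeat elements) and 0 lower at an unadjusted p of at most 0.05 (0.829% of all repeat elements were called). In DESeq2 the counts of calls were also 0. The median log2 fold change was 0.23. E1 S1S2 against E1 gave 1 lower and 0 higher (2.65% of all repeat elements called in either direction). 6KO1 against E1 S1S2 gave 0 in either direction by edgeR and by DESeq2 (24.2%). At an unadjusted p of at most 0.05 the latter gave 1 higher and 5 lower, and the share of all repeat elements at that p was not counted. E1E2 G9Gl against E1E2 gave 1 higher and 2 lower (34.5%), 6KO2 against E1E2 G9Gl 2 higher and 1 lower (18.6%), and 6KO1 against 6KO2, which have the same 6 genes inactivated, 1 higher and 3 lower (6.46%). Single libraries moved these counts. Without E1E2 replicate 1, 1 element was higher in E1E2 than in E2, and without 6KO1 replicate 3, 2 were lower in 6KO1 than in E1 S1S2, and 1 without E1 S1S2 replicate 1 or 3. In 6KO1 against 6KO2, 3 were higher and 1 lower without 6KO2 replicate 3, 5 were lower without 6KO1 replicate 3 or 6KO2 replicate 1, and 2 were higher without 6KO1 replicate 1. Without E1E2 replicate 2, 2 were higher in E1E2 G9Gl than in E1E2, and without E1E2 G9Gl replicate 2, 2 were lower in 6KO2 than in E1E2 G9Gl. The elements called with all libraries were named because they were few, after their values were seen.

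Glu-GAG_ was the element lower in E1 S1S2 than in E1 (-1.18 ± 0.27), and the call was lost without E1 replicate 1 (-1.13), E1 replicate 3 (-0.91) or E1 S1S2 replicate 3 (-1.10). It was also lower in E1E2 G9Gl than in E1E2 (-1.03 ± 0.32), with 40.4, 36.5 and 35.1 in E1E2 and no overlap, and that call was lost without E1E2 replicate 1 (-0.97) or E1E2 G9Gl replicate 1 (-1.03) or 3 (-0.89). Leu-TTA was lower in the same comparison (-1.33 ± 0.32), with 62.1, 83.0 and 59.96 in E1E2 against 22.7, 28.9 and 29.8.

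Gln-CAA_ was at 26.6, 26.6 and 32.05 in E1E2, at 83.1, 54.3 and 55.7 in E1E2 G9Gl and at 26.9, 17.1 and 22.1 in 6KO2. It was thus higher in E1E2 G9Gl than in either neighbour of that series, by 1.19 ± 0.29 against E1E2 (0.95 and not called without E1E2 G9Gl replicate 1), and 6KO2 stood at -1.54 ± 0.31 against E1E2 G9Gl. Ser-TCG was higher in 6KO2 than in E1E2 G9Gl (1.28 ± 0.25) and lower in 6KO1 than in 6KO2 (-1.53 ± 0.24, adjusted p of 1.8e-06 by edgeR), without overlap. The selenocysteine element was the other one higher in 6KO2 than in E1E2 G9Gl (1.60 ± 0.53). Its libraries overlapped, and the call was lost without 6KO2 replicate 3 (0.66) and without E1E2 G9Gl replicate 1 (1.44), 2 (1.78) or 3 (1.54).

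Between the 2 lines without all 6 enzymes, Gly-GGG was higher in 6KO1 (22.9, 20.01 and 27.4) than in 6KO2 (5.17, 6.86 and 12.1), by 1.53 ± 0.38, but not called without 6KO2 replicate 1 (1.28) or 2 (1.43). Leu-TTG and Ile-ATA were lower in 6KO1, by -1.39 ± 0.36 and -1.92 ± 0.47, and both calls were lost without 6KO2 replicate 3 (-0.72 and -1.34), and that of Leu-TTG also without 6KO1 replicate 1 (-1.16).

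Whether the 4-OHT comparison differed between the Eset1-conditional line and its Eset2 mutant clone A4 was tested as E1 against WT minus E1E2 against E2. By edgeR 5 of the 47 tRNA elements passed an adjusted p of 0.01, where 6.21% of all repeat elements did, and 24 passed an unadjusted p of 0.05, where 15.2% of all repeat elements did. The median difference was -0.86 on the log2 scale, and each of the 5, Val-GTG, Arg-CGA, Asn-AAC, Trp-TGG and Leu-CTG, lay below WT in E1 and above E2 in E1E2. Val-GTG, the isotype of n-TVcac9, was at 41.6, 63.0 and 50.2 in WT, at 35.2, 24.7 and 34.3 in E1, at 20.2, 20.6 and 22.6 in E2 and at 35.5, 28.8 and 47.6 in E1E2. Neither pair of conditions overlapped. The number was 2 without WT replicate 2, 13 without WT replicate 3 and without E2 replicate 1 or E1E2 replicate 3 it was 1. It was 2 without E1 replicate 2, 11 without E1 replicate 3, 10 without E2 replicate 2 and 8 without E1E2 replicate 1. 

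Other small RNAs of RNA polymerase III, scaled to the gene counts in the same way, did not all lie on the same side of WT as the tRNA elements. The 5S element, named for the ribosomal 5S RNA, was at 168, 133 and 168 in WT and above these in 6KO1 (228, 203 and 196) and E1E2 G9Gl (222, 219 and 216). 7SK, which holds the elongation factor P-TEFb inactive, stood at 1.86 times WT in 6KO2, 1.57 in 6KO1, 1.46 in E1E2 G9Gl and 1.41 in E1E2 without overlap, and overlapped with WT in the other 3. BC1_Mm, the neuronal BC1 RNA derived from an alanine tRNA, was at 4000, 4593 and 4136 in WT, below these in 6KO2, E1E2 G9Gl, 6KO1, E1 S1S2 and E1 (ratios of 0.725 to 0.874), overlapping with them in E2 (4484, 4743 and 5302) and above them in E1E2 at a ratio of 1.15. The 7SL element, at 1311003, 1916276 and 1363190 in WT, and the U6 element, at 241, 171 and 242, overlapped with WT in every mutant. The tRNA-derived SINE families B2, ID and MIR overlapped with WT in every mutant, except B2 in E1E2, which was above at a ratio of 1.21.

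Mitochondrial tRNA genes, which RNA polymerase III does not transcribe, were at 1184, 2106 and 1276 in WT and at 1214, 1175 and 1498 in E1. In the other 6 mutants every library lay below WT, from 610 to 870. Small nucleolar RNA genes had ratios of 0.526 in 6KO1, 0.647 in E1 S1S2 and 0.672 in E1E2 G9Gl without overlap, and overlapped with WT in E1, E2, E1E2 and 6KO2. The part of these shifts in the tRNA results was not tested.

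**Figure D5:**
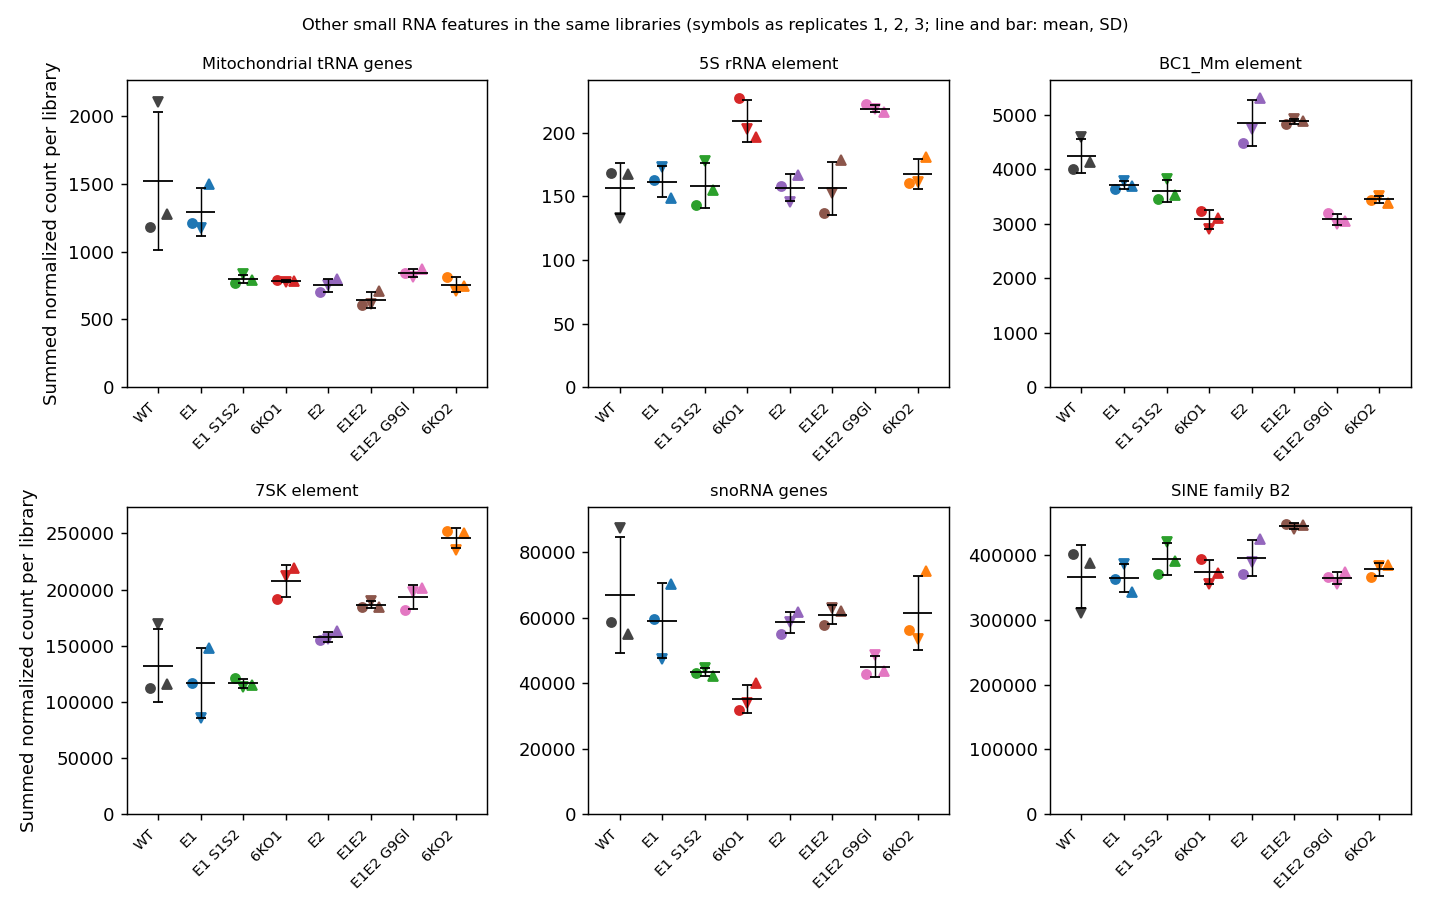
Summed normalized counts per library (vertical axes, starting at 0) of mitochondrial tRNA genes, the 5S, BC1_Mm and 7SK elements, small nucleolar RNA genes and the SINE family B2 in the 8 conditions, with a symbol for each replicate, a line for the mean and a bar for the SD of 3. Mitochondrial tRNA genes lie below WT in 6 mutants, 5S lies above WT in 6KO1 and E1E2 G9Gl, and 7SK lies above WT in 6KO2, 6KO1, E1E2 G9Gl and E1E2.

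The genes that make and use tRNAs were read from 4 lists with 75 members, all of them tested. They comprise 18 subunits of RNA polymerase III, 12 initiation factors including the repressor Maf1, 25 genes of precursor processing, export, modification and cleavage, and 20 cytosolic aminoacyl-tRNA synthetases. Genes called lower than WT by edgeR numbered 20 in 6KO1, 13 in E1E2 G9Gl, 3 in 6KO2, 3 in E1 S1S2 and 0 in E2, E1E2 and E1, and genes called higher numbered 1, in E2. In DESeq2 the numbers lower were also 0 in E1, E2 and E1E2. By the adjusted p alone they were 13 in E1 (6.6% of all genes tested), 29 in E2 (14.4%) and 29 in E1E2 (16.9%), and at an unadjusted p of at most 0.05 they were 23 (15.4%), 37 (24.7%) and 41 (26.2%). Of all 18565 genes tested, 10.2% were called lower in 6KO1, 8.41% in E1E2 G9Gl, 5.39% in 6KO2, 5.12% in E1 S1S2, 3.21% in E2, 3.22% in E1E2 and 1.99% in E1. Called higher were 20.6% in 6KO1, 16.7% in E1E2 G9Gl, 15.3% in 6KO2, 6.65% in E1 S1S2, 2.9% in E2, 5.51% in E1E2 and 2.27% in E1. When WT replicate 2 was left out, the numbers lower were 13 in 6KO1, 7 in E1E2 G9Gl and 1 in both 6KO2 and E1 S1S2. Without WT replicate 1 they were 7 in 6KO2, 3 in E1E2 and 1 in E2, without WT replicate 3 they were 6 in 6KO2 and 2 in E1E2, and without E1E2 replicate 3 there was 1 in E1E2.

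Of the polymerase subunits, Polr3g, which can take the place of Polr3gl in the enzyme, was lower in 6KO1 (-1.68 ± 0.12) and E1E2 G9Gl (-1.89 ± 0.13). Polr3b, the second largest subunit, was lower in 6KO1 (-1.01), Polr3e in E1E2 G9Gl (-1.04), and of the subunits shared with other polymerases Polr2e (-1.498) and Polr2h (-1.04) were lower in 6KO1 and Polr1c (-1.06) in E1E2 G9Gl. The calls of Polr2h (-0.74) and Polr1c (-0.89) were lost without WT replicate 2, that of Polr3b without WT replicate 3 (-0.996) or 6KO1 replicate 1 (-0.99), and that of Polr2h also without 6KO1 replicate 1 (-0.99). Polr3a, the largest subunit, was called in no mutant, with log2 fold changes from -0.86 in E1E2 G9Gl to 0.08 in E1.

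Of the initiation factors, the TFIIIC subunits Gtf3c6 and Gtf3c3 were called, Gtf3c6 in 6KO1 (-1.32), 6KO2 (-1.07) and E1E2 G9Gl (-1.04) and Gtf3c3 in E1 S1S2 (-1.06). Gtf3c1, the largest TFIIIC subunit, the TFIIIB subunit Brf1 and the repressor Maf1 were called in no mutant. The calls of Gtf3c3 (-0.91) and of Gtf3c6 in 6KO2 (-0.84) and E1E2 G9Gl (-0.82) were lost without WT replicate 2, the last also without E1E2 G9Gl replicate 1 (-0.94). Maf1 was above WT, under the 2-fold minimum, in E1E2 G9Gl (0.42 ± 0.06), E2 (0.41 ± 0.06) and 6KO1 (0.30 ± 0.06), at adjusted p of 1.5e-06, 9.5e-06 and 0.00011 by edgeR. It stood at 0.17 in 6KO2, 0.08 in E1 S1S2, 0.04 in E1E2 and -0.10 in E1, and none of these 4 passed an adjusted p of 0.01.

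Among processing genes, Ssb, which encodes the La protein that binds the 3′ end of precursors, was lower in 6KO1 (-1.10), 6KO2 (-1.01) and E1E2 G9Gl (-1.08). The RNase P subunits Rpp40 and Pop1 were lower in 6KO1 (-1.82 and -1.10) and E1E2 G9Gl (-1.61 and -1.16). Rpp25, a further subunit, was lower in E1 S1S2 (-4.54 ± 0.35), 6KO1 (-6.65 ± 0.47) and E1E2 G9Gl (-1.90 ± 0.26) and higher in E2 (1.47 ± 0.17), where its mean rose from 42.7 to 117 normalized counts. The ligase Rtcb (-1.23), the splicing endonuclease subunit Tsen15 (-1.03) and the tRNA exporter Xpot (-1.80) were lower in 6KO1. The CCA-adding enzyme Trnt1 and the splicing endonuclease subunit Tsen34 were lower in E1E2 G9Gl (-1.20 each), the methyltransferase Trdmt1 in 6KO2 (-1.23) and the ribonuclease Ang in E1 S1S2 (-1.02). Without WT replicate 2, all 3 calls of Ssb were lost (-0.81 in 6KO1, -0.72 in 6KO2 and -0.80 in E1E2 G9Gl), as were those of Tsen15 (-0.95), Trnt1 (-0.94) and Ang (-0.93). That of Ssb in 6KO2 was also lost without 6KO2 replicate 2 (-0.97), and that of Ang without E1 S1S2 replicate 2 (-0.91) or 3 (-0.97).

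Of the synthetases, 8 were lower in 6KO1, Dars, Eprs, Farsb, Kars, Mars, Nars, Rars and Tars, with log2 fold changes of -1.03 to -1.27. In E1E2 G9Gl 3 were lower, Dars (-1.10), Farsb (-1.23) and Rars (-1.17). None was called in the other 5 mutants by edgeR, and by the adjusted p alone 16 were lower in 6KO2 (25% of all genes tested), 15 in E1 S1S2 (21.9%), 12 in E1E2 (16.9%), 10 in E1 (6.6%) and 5 in E2 (14.4%). Without WT replicate 2, the calls of Dars (-0.95), Farsb (-0.96), Kars (-0.97) and Rars (-0.85) in 6KO1 were lost, as were those of Dars (-0.86) and Rars (-0.97) in E1E2 G9Gl.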

How the data were processed

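RNA was sequenced as stranded total RNA in 24 libraries. The authors trimmed reads with cutadapt 1.8.1, aligned them with STAR 2.5.2b to GRCm38 and counted them with TEtranscripts, and they deposited the whole-number counts per gene and repeat element used here, without normalization. The strand setting and the copies behind an element are not given in the sources used here. Replicates were not pooled. A malformed row that names no gene was left out (0.00175% to 0.00271% of counts).

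Library sizes and TMM factors came from the gene rows. All repeat elements passing edgeR's filterByExpr (1207) and, separately, all genes passing it (18565) were fitted over the 24 libraries with the quasi-likelihood test of edgeR 4.0.16 (R 4.3.3, limma 3.58.1), with Benjamini-Hochberg adjustment. A call needed an adjusted p of at most 0.01 and a 2-fold change. Sums of counts have no test. Total counts per library were 24736829 to 37419071. With 2717 to 5869 tRNA counts in a library, elements with few counts are imprecise, which their SEs carry. The scripts were tested on simulated data. Figures were drawn with matplotlib 3.10.9.

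Named were the 5 elements largest in WT, the 14 with the smallest adjusted p against WT and the extremes in E1, E1E2 G9Gl, 6KO1 and 6KO2. Others were named after their values were seen. The members and lists were chosen with earlier results of these data known. Pairing of same-numbered replicates was checked by correlation, and in 0 of the 13 comparisons did all pairs correlate above 0.1 (pair correlations -0.242 to 0.197). This check cannot exclude that single pairs share a preparation, as U2 was high in replicate 2 of both E2 and E1E2. The alternatives were DESeq2 1.42.0, RLE factors, factors from the repeat rows, with or without the gene rows, other filters, no fold minimum, fits of 6 libraries, a replicate block, sums without alanine or without the largest element, and leaving out each library. One item is not reported here.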

Additional observations from a re-analysis of the deposited data

Results flagged for a closer look

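The 4-OHT comparison differed between the Eset1-conditional line and the Eset2 mutant clone A4 in 5 tRNA elements, by edgeR's quasi-likelihood test of the difference itself. These were 5 of the 47 tested, where 6.21% of all repeat elements passed, and 1 passed with the library factors taken from the repeat counts alone. The difference, E1 against WT minus E1E2 against E2 on the log2 scale, was -1.54 ± 0.34 (SE) for Val-GTG at an adjusted p of 0.00093, -2.47 ± 0.58 for Arg-CGA at 0.0018, -1.29 ± 0.32 for Asn-AAC at 0.0036, -1.43 ± 0.36 for Trp-TGG at 0.0048 and -1.93 ± 0.49 for Leu-CTG at 0.0052. E1 lay below WT in these elements by log2 fold changes of -0.72, -0.95, -0.81, -0.75 and -0.79, and E1E2 lay above E2 by 0.82, 1.52, 0.49, 0.69 and 1.14. None of these single comparisons was called in either clone. The number of such elements was 1 to 13 when a library was left out, and the cause was not tested.

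The small nuclear RNA element U2, which is no tRNA element, had 43035 raw counts in E2 replicate 2, 35568 in E1E2 replicate 2 and 38590, 35188 and 53252 in 6KO2 replicates 1, 2 and 3, against 153 to 267 in the other 19 libraries, WT included. The cause was not tested.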

How the results depend on the processing

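Of 137 log2 fold changes of named elements, 134 kept their direction under every alternative, 15 lost their call under at least 1 and 34 when some library was left out, and 14 and 19 gained one. The 3 that reversed, all with factors from repeats alone, were Ala-GCY_ in E1 S1S2 (-0.068), the selenocysteine element in 6KO1 (-0.23) and Ala-GCG in E1E2 G9Gl (-0.61). Shares of all repeat elements called were counted only for the main fit. The numbers of tRNA calls under the alternatives and with a library left out therefore have no background. A mean count above 100 left 6 tRNA elements to test, Ala-GCY_, Ala-GCA, Gln-CAG, Ser-TCG, Tyr-TAC and Ser-TCY. Lower calls were then 3 in each of E2, 6KO1 and E1E2 G9Gl, 2 in 6KO2, 1 in E1E2 and 0 in E1 S1S2 and E1. The medians of these 6 were -0.87 in E2 and -0.23 in 6KO2, against -1.17 and -0.90 over the 47. Between mutants this filter gave 0 lower in E1 S1S2 against E1, 0 in either direction in E1E2 G9Gl against E1E2, 1 higher and 0 lower in 6KO2 against E1E2 G9Gl, and 0 higher and 1 lower in 6KO1 against 6KO2.

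With factors from repeats alone, lower calls were 1 in E1, 15 in E1 S1S2, 35 in 6KO1 and 38 in E1E2 G9Gl, with medians of -1.28 in 6KO2, -1.79 in E1E2 G9Gl and -1.54 in 6KO1. Over all repeat elements the medians were then -0.04, -0.07 and -0.06. The share of all repeat elements called with these factors, against WT or between mutants, was not counted. These numbers of calls therefore have no background. Between mutants the calls were 0 lower in E1 S1S2 against E1 and 4 lower in 6KO1 against E1 S1S2 (median -0.60). They were 0 higher and 11 lower in E1E2 G9Gl against E1E2 (-0.81). In 6KO2 against E1E2 G9Gl they were 5 higher and 0 lower (0.53), and in 6KO1 against 6KO2 0 higher (-0.21). The change with Eset1 deletion and 4-OHT differed between the Eset1-conditional line and clone A4 in 1 element. In the order E2, 6KO1, E1E2 G9Gl, 6KO2, E1E2, E1 S1S2 and E1, the summed tRNA counts relative to WT were 0.624, 0.469, 0.379, 0.548, 0.681, 0.684 and 0.760 with these factors. Without the largest element they were 0.524, 0.630, 0.580, 0.609, 0.617, 0.674 and 0.722, and without the alanine elements, an alternative chosen after seeing the data, 0.433, 0.545, 0.493, 0.554, 0.545, 0.590 and 0.672.

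DESeq2 gave 1 lower call in E1 and 1 higher in 6KO2 against E1E2 G9Gl, as did the fit of 6 libraries in the latter (1). RLE factors gave 1 higher call in 6KO2 against WT and 1 lower in E1E2 G9Gl against E1E2, and no filter gave 1 higher in 6KO2. Without the fold minimum, lower calls were 5 in E1, 19 in E1 S1S2, 3 in 6KO1 against E1 S1S2 and 2 in 6KO2 against E1E2 G9Gl, and higher calls were 2 in E1E2 G9Gl against E1E2 and 4 in 6KO1 against 6KO2. Pathway genes lower were then 29, 55, 55, 46, 29, 47 and 13 in the order above, and higher 8 in 6KO1, 5 in E2 and E1E2 G9Gl, 4 in 6KO2 and E1E2 and 3 in E1 S1S2. Of all genes tested, 14.4% were then lower in E2, 25% in 6KO2, 16.9% in E1E2, 21.9% in E1 S1S2 and 6.6% in E1. The shares lower in 6KO1 and E1E2 G9Gl, and the shares higher, were not counted, so these numbers have no background. The cause was not tested.

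With the replicate number as a block, though the correlations showed no pairing in all replicates, lower calls against WT stayed at 27, 21, 20, 18, 16, 7 and 2 in that order. Elements whose change with Eset1 deletion and 4-OHT differed between the Eset1-conditional line and clone A4 numbered 7, against 5. In 6KO2, 2 pathway genes were lower, against 3.

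When 1 library was left out, lower calls ranged over 19 to 29 in E2, 13 to 22 in 6KO1, 15 to 25 in E1E2 G9Gl, 13 to 25 in 6KO2, 10 to 21 in E1E2, 2 to 15 in E1 S1S2 and 0 to 7 in E1, and higher calls over 0 to 1 in 6KO2. The highest numbers were reached in E1 without E1 replicate 3 (7) and in E1 S1S2 without WT replicate 3 (15), and the lowest in E1 without E1 replicate 2 (0) and in E1 S1S2 without WT replicate 2 (2). Elements whose change with Eset1 deletion and 4-OHT differed between the Eset1-conditional line and clone A4 ranged from 1 to 13. Between mutants, lower calls ranged from 0 to 1 in E1 S1S2 against E1, 0 to 2 in 6KO1 against E1 S1S2 (median -0.21 to -0.067), 1 to 2 in E1E2 G9Gl against E1E2, 1 to 2 in 6KO2 against E1E2 G9Gl (median -0.19 to 0.17) and 1 to 5 in 6KO1 against 6KO2 (median 0.028 to 0.32). Higher calls ranged from 0 to 1 in E1E2 against E2, 1 to 2 in E1E2 G9Gl against E1E2, 1 to 3 in 6KO2 against E1E2 G9Gl and 0 to 3 in 6KO1 against 6KO2. Pathway genes lower ranged from 13 to 25 in 6KO1, 7 to 14 in E1E2 G9Gl, 1 to 7 in 6KO2, 0 to 3 in E1E2, 1 to 4 in E1 S1S2 and 0 to 1 in E2.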
